A study of Mus musculus with 20 samples.

Results

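Interferon-stimulated genes are switched on when a cell senses interferon, and a low level of them is found in tissues of animals that were not infected. The list described here was named as *Ifit1*, *Ifit2*, *Ifit3*, *Isg15*, *Irf7*, *Usp18*, *Rsad2*, *Oasl1* and *Ifi44*, and a member was taken where a probe set of the array was assigned to it and to no other gene. This held for 7 of the 9 genes, each with 1 of the 20777 single-gene probe sets among 25689 probe sets with values. The only probe set that names *Isg15* also names the pseudogene *Gm9706*, and no probe set is assigned to *Ifi44*, so these 2 members have no value here.

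The livers came from *Crem* KO (Crem-/-) mice and WT mice on the 129Pas x C57Bl/J background that were 8 weeks old, fed freely and left untreated. CREM is a transcription factor of the cAMP pathway, and the KO mice lack it in every tissue, so that an action within hepatocytes cannot be told apart from one of other cells or organs. At the end of light (12 h) 5 KO and 5 WT mice were taken, and at its onset (0 h) 5 KO and 5 WT mice, with 1 array of whole liver RNA per mouse. The labels name 5 batches. The 12 h livers are all in batch 5, and the 0 h livers are spread over batches 1 to 4 with KO and WT mice in each. A change with time therefore cannot be told apart from one between batches, and what a batch shared is not given in the labels.

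In the classical pathway, type I interferon binds its receptor, the kinases JAK1 and TYK2 become active, and a complex that holds IRF9 binds a short DNA element, the interferon-stimulated response element (ISRE), in the promoters of the responding genes. Nucleic acid sensors such as RIG-I (*Ddx58*) start the production of interferon, and IRF7 carries it further. In the liver, hepatocytes, Kupffer cells and endothelium all respond to interferon.

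The promoter stretches with an ISRE are shown because the genes that hold it, *Ifit1*, *Ifit3* and *Rsad2*, are among those whose levels moved together from mouse to mouse. In windows from 250 bases before to 50 bases after each gene's start (RefSeq, GRCm38.p6), the ISRE was searched as a pair of GAAA blocks with any 2 bases between them, or a pair of TTTC blocks for the other strand, with overlaps allowed. Of the 7 measured members 6 have a window in the table used (*Usp18* was not among them), and 3 of the 6 held a match, against 3.44% of all 32851 windows. Capitals mark the matches, and each stretch is read 5′ to 3′ on the strand of the gene. *Ifit1* held 2 matches, *Ifit3* held 2 and *Rsad2* held 1.
Ifit1, chr19:34640773-34640825, plus strand: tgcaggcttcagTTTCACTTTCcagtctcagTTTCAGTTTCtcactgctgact
Ifit3, chr19:34583361-34583428, plus strand: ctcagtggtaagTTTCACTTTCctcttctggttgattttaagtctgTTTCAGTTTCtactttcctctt
Rsad2, chr12:26456551-26456584, minus strand: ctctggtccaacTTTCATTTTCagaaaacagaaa
*Ifit2*, *Irf7* and *Oasl1* held no exact match in these windows. The neighbouring gene *Ifit3b* carries the same 68 bases as *Ifit3*. These lie before the start of the gene and do not show whether the probes of the 2 genes match both transcripts. That was not checked, so the level of the *Ifit3* probe set is uncertain as to its source.

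The full cAMP response element TGACGTCA, to which CREM can bind, was in the window of 0 of the 6 members and in 1.79% of all windows. Its short core, TGACG on either strand, was in 3 of the 6 members' windows, those of *Irf7*, *Oasl1* and *Rsad2*, and in 20.8% of all windows. A core of *Irf7*, of *Oasl1* (1 of its 2) and of *Rsad2* is shown, with the core in capitals. These genes are also the members called between the times below. The stretches were chosen with those calls known, and a link between core and change was not tested.
Irf7, chr7:141266499-141266527, minus strand: gtgacaccctagTGACGtctggagccctt
Oasl1, chr5:114923065-114923093, plus strand: tcagtttacaaaCGTCAcaaaagagaaac
Rsad2, chr12:26456663-26456691, minus strand: gaattcttgcagCGTCAtcaggacagatg
A match of letters is not a binding site, and no binding was measured in these livers.

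All values below are log2 expression per probe set as normalized by the authors (RMA), so that a difference of 1 is a doubling, and levels of different genes are not compared. The array medians lay between 7.07 and 7.24. The mean of the 6 hepatocyte markers (*Alb*, *Apoa1*, *Ttr*, *Tat*, *Cps1* and *Apob*) lay between 13.70 and 13.88 in every mouse. The targeted gene *Crem* averaged 7.60 ± 0.17 in KO and 7.97 ± 0.06 in WT livers at 12 h (SD, n = 5 each), and 7.85 ± 0.30 in KO and 8.32 ± 0.17 in WT livers at 0 h (SD, n = 5 each), with an adjusted p of 0.135 from limma over both times. At 12 h the KO mice (7.39 to 7.83) lay below the WT mice (7.90 to 8.02), and at 0 h the KO mice (7.43 to 8.17) overlapped with the WT mice (8.11 to 8.54), since the library labelled KO mouse 1, at 8.17, lay above the library labelled WT mouse 80, at 8.11. It was not checked whether this probe set lies in the deleted part of the gene. For the members named with calls or correlations, values without these 2 libraries are given as well. In whole liver RNA, fewer cells of a type and less RNA per cell cannot be told apart.

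**Figure D1:**
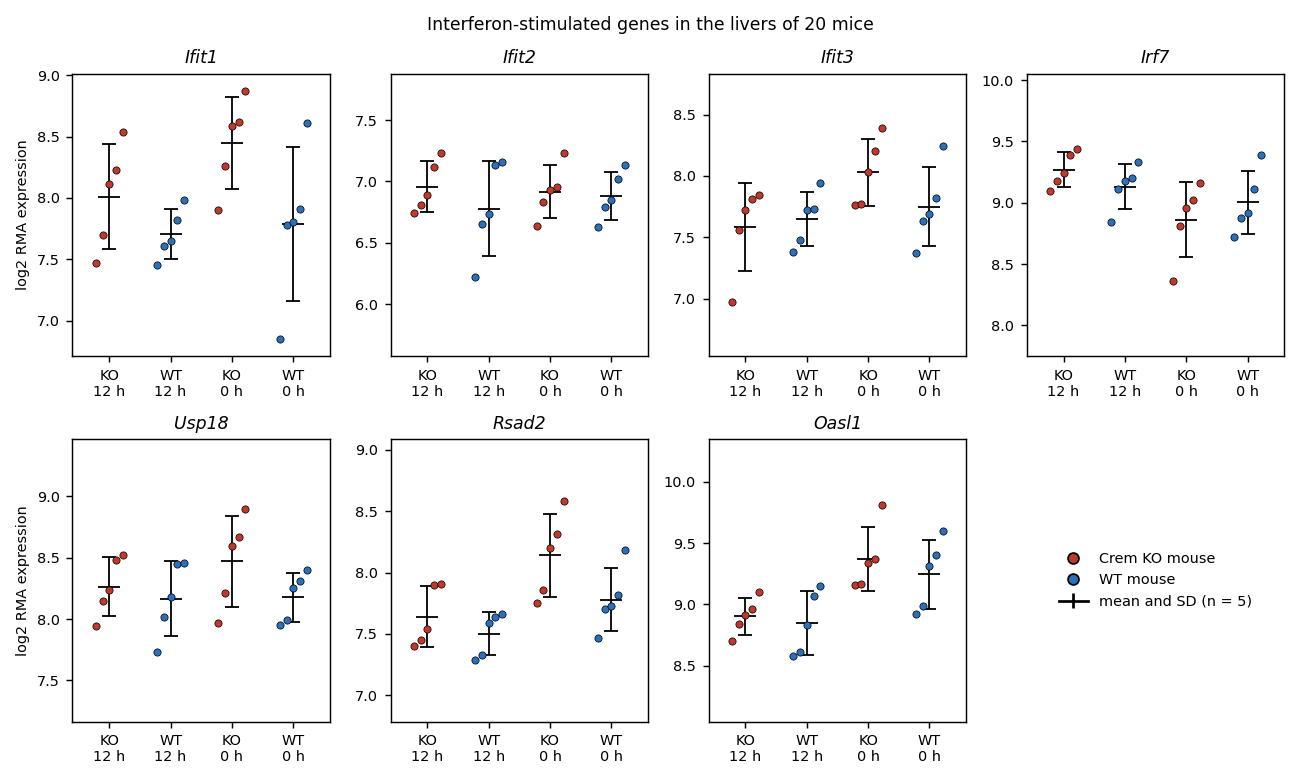
Log2 RMA expression (vertical axis, which does not start at 0 and spans the same number of log2 units in each panel) of the 7 measured genes in the livers of 20 mice. Each point is 1 mouse, red for *Crem* KO and blue for WT, and bars show the group mean with its SD (n = 5). The KO and WT mice of each time overlap for every gene, and *Ifit1* has the widest spread, from 6.85 to 8.87.

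*Ifit1* encodes an RNA-binding protein that recognises foreign caps on viral RNA, and it had the largest estimated difference between the genotypes. At 12 h its levels were 7.47, 7.70, 8.11, 8.23 and 8.54 in KO mice, against 7.45, 7.61, 7.65, 7.82 and 7.98 in WT mice. At 0 h they were 7.90, 8.26, 8.59, 8.62 and 8.87 in KO mice, against 6.85, 7.78, 7.80, 7.91 and 8.61 in WT mice. At 12 h 3 KO mice lay above every WT mouse and at 0 h 2 did, so that the groups overlapped at both times. The lowest value, 6.85, belongs to WT mouse 80, and the highest WT value, 8.61, to WT mouse 146.

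The log2 difference of *Ifit1* between KO and WT livers was 0.31 at 12 h (SE 0.24, 95% confidence interval -0.19 to 0.81), 0.66 at 0 h (SE 0.24, interval 0.16 to 1.16) and 0.48 over both times (SE 0.17, interval 0.13 to 0.84). Leaving out 1 array, the difference at 12 h lay between 0.17 (without KO mouse 18) and 0.44. None of the 3 passed among all probe sets (limma, adjusted p of 0.642, 0.987 and 0.38). An exact permutation test, two-sided, that exchanged genotypes inside each time gave p = 0.0201 over both times, or 0.375 after adjustment over the 21 tests of members between the genotypes. For a single time, with 5 mice against 5, the smallest p of this test is 0.00794. Leaving out 1 array, the difference at 0 h lay between 0.42 (without WT mouse 80) and 0.86. Without WT mouse 80 and KO mouse 1 it was 0.38 at 0 h and 0.34 over both times. By batch, KO livers exceeded WT livers by 0.31 in batch 5 (5 KO, 5 WT). Among the 0 h batches KO minus WT was -0.53 in the first (2 KO, 1 WT), 0.83 in the second (1 KO, 1 WT), 1.21 in the third (1 KO, 2 WT) and 1.09 in the fourth (1 KO, 1 WT), so that its sign was not the same in all.

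*Rsad2* encodes viperin, an enzyme that hinders the growth of many viruses. At 12 h its levels were 7.40, 7.45, 7.54, 7.90 and 7.91 in KO mice, against 7.29, 7.33, 7.59, 7.64 and 7.66 in WT mice. At 0 h they were 7.75, 7.86, 8.20, 8.31 and 8.58 in KO mice, against 7.47, 7.70, 7.73, 7.82 and 8.18 in WT mice. At 0 h 3 of the 5 KO mice lay above every WT mouse, and at 12 h 2 did. The difference over both times was 0.25 (SE 0.11, interval 0.03 to 0.47), which did not pass (limma, adjusted p = 0.456). The exact permutation test, two-sided, gave p = 0.0495, and 0.375 after adjustment over the 21 tests. Without WT mouse 80 and KO mouse 1 the difference was 0.26 at 0 h and 0.20 over both times.

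Over the 7 genes, 0 were called between KO and WT livers at 12 h, where 0.0234% of all 25689 probe sets were called, 0 at 0 h, where 0% were, and 0 over both times, where 0.0117% were. At an unadjusted p under 0.05 from limma there were 0 members at 12 h, against 12.5% of all probe sets, 2 at 0 h (*Ifit1* and *Rsad2*), against 4.47%, and the same 2 over both times, against 9.88%. The KO mean was above the WT mean for 6 of the 7 genes at 12 h, against 50.4% of all probe sets, and for 6 of 7 at 0 h, against 49.7%. The exceptions were *Ifit3* at 12 h (-0.07) and *Irf7* at 0 h (-0.14). Without WT mouse 80 and KO mouse 1 the count at 0 h was 5 of 7, since *Ifit2* was then at -0.01. The median difference of the 7 genes was 0.14 at 12 h, 0.28 at 0 h and 0.11 over both times, and that of all probe sets was 0.00 each time. Leaving out 1 array, the members' median lay between 0.05 (without WT mouse 169) and 0.18 at 12 h. At 0 h it lay between 0.18 (without KO mouse 76) and 0.35. Over both times it lay between 0.09 and 0.18 (without KO mouse 55). Several of the genes move together among mice, as described below, so that their common sign is not 7 independent observations.

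For no member were KO and WT mice free of overlap at either time, which was the case for 2.42% of all probe sets at 12 h and 0.728% at 0 h. By batch, KO lay above WT for 6 of the 7 genes at 12 h, and at 0 h for 1, 4, 5 and 6 of the 7 genes in the first to the fourth batch. The intervals of the difference over both times were -0.12 to 0.33 for *Ifit2*, -0.14 to 0.35 for *Ifit3*, -0.20 to 0.19 for *Irf7*, -0.05 to 0.44 for *Usp18* and -0.12 to 0.30 for *Oasl1*. Differences larger than these bounds are outside the intervals, and smaller ones are not shown to be absent.

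**Figure D2:**
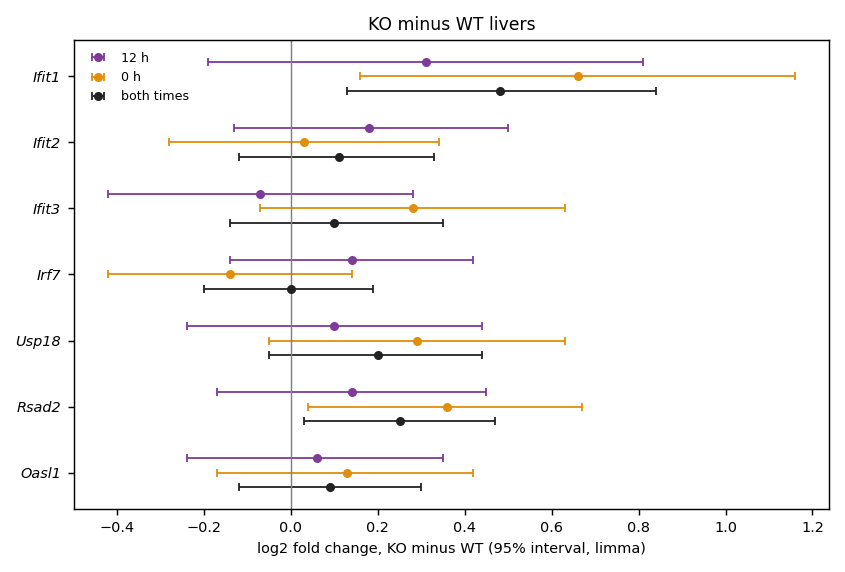
Log2 fold change of KO minus WT livers (horizontal axis) for the 7 genes at 12 h, at 0 h and over both times, with 95% confidence intervals from limma. The widest departure from 0 is that of *Ifit1* at 0 h, at 0.66, and no gene passed after adjustment over all probe sets.

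Whether the genotype difference itself changed between the times was tested as an interaction. It was called for 0 of the 7 genes and for 0% of all probe sets, and at an unadjusted p under 0.05 for 0 members, against 6.84%. The lowest adjusted p of a member was 0.813 (limma), for *Ifit3* at -0.35 (interval -0.85 to 0.14) and for *Irf7* at 0.28 (interval -0.11 to 0.67).

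Between the times the called members did not all move in the same direction. *Oasl1* and *Rsad2* were lower at 12 h and *Irf7* was higher, each in KO livers, and *Oasl1* was also lower in WT livers. The other 4 members were not called in either genotype. In all, 3 of the 7 genes were called in KO livers, where 20.3% of all probe sets were called, and 1 of 7 in WT livers, where 27.8% were. The lower direction held for 2 members in KO, against 9.69% of all probe sets, and for 1 in WT, against 14.3%. The higher direction held for 1 member in KO, against 10.6% of all probe sets, and for 0 in WT, against 13.5%. The change was above 0 for 2 of the 7 genes in KO livers and for 1 in WT livers, and a joint shift was not tested. The median change of the 7 genes was -0.44 in KO and -0.10 in WT livers, and that of all probe sets was -0.02 in KO and -0.03 in WT livers. Leaving out 1 array, the members' median lay between -0.52 and -0.30 in KO and between -0.19 and 0.02 in WT livers. Counts this small are not read as different from the background.

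*Oasl1* belongs to the oligoadenylate synthetase-like proteins and in the mouse holds back the translation of *Irf7* mRNA. In KO mice its levels were 8.70, 8.84, 8.91, 8.96 and 9.10 at 12 h, against 9.16, 9.17, 9.34, 9.37 and 9.81 at 0 h. These groups did not overlap, as was the case for 7.49% of all probe sets in this direction and for 16.4% in either. In WT mice the levels were 8.58, 8.61, 8.83, 9.07 and 9.15 at 12 h, against 8.92, 8.99, 9.31, 9.40 and 9.60 at 0 h, and 2 mice of the 12 h group lay within the range of the 0 h group. The log2 change was -0.47 in KO livers (SE 0.14, limma adjusted p = 0.0218) and -0.40 in WT livers (SE 0.14, limma adjusted p = 0.0403), with no difference called between the genotypes (-0.07, interval -0.49 to 0.35).

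The call of *Oasl1* in KO livers was lost without KO mouse 76 (-0.36) or KO mouse 55 (-0.42). In WT livers it was lost without WT mouse 78 (-0.36), 80 (-0.31), 145 (-0.38), 111 (-0.34), 169 (-0.39) or 170 (-0.33), and also with batch as a random block, with only the WT arrays, with each array centred on its median and with array weights (adjusted p of 0.0526, 0.0667, 0.0959 and 0.0824).

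*Rsad2* in KO mice lay at 7.40, 7.45, 7.54, 7.90 and 7.91 at 12 h, against 7.75, 7.86, 8.20, 8.31 and 8.58 at 0 h, a change of -0.50 (SE 0.15, limma adjusted p = 0.0214). The 2 highest KO mice at 12 h, 18 and 109, lay above the 2 lowest at 0 h, 143 and 77. In WT livers the change was -0.28 (interval -0.59 to 0.03), which was not called. Without KO mouse 1 and WT mouse 80 the calls of *Rsad2*, *Oasl1* and *Irf7* in KO livers held, at -0.48, -0.52 and 0.45. The call in KO livers was lost without KO mouse 76 (-0.39), 144 (-0.46), 110 (-0.44) or 166 (-0.45).

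*Irf7*, the factor that amplifies interferon production, ran the other way. In KO mice its levels were 9.10, 9.18, 9.24, 9.39 and 9.44 at 12 h, against 8.36, 8.81, 8.96, 9.02 and 9.16 at 0 h, and only the highest 0 h mouse lay within the range of the 12 h mice. The change was 0.41 (SE 0.13, limma adjusted p = 0.0331). In WT mice the levels were 8.84, 9.11, 9.18, 9.20 and 9.33 at 12 h, against 8.72, 8.88, 8.92, 9.11 and 9.39 at 0 h, with a change of 0.13 (interval -0.15 to 0.41) that was not called. In KO livers the call was lost without KO mouse 77 (0.29), 144 (0.40), 18 (0.38), 110 (0.37) or 166 (0.42) and with quantile normalization (0.35, adjusted p = 0.0689). Its batch means within the 0 h livers differed by up to 0.51, which is more than this change. For *Oasl1* and *Rsad2* that largest difference between 0 h batches was 0.27 and 0.33.

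**Figure D3:**
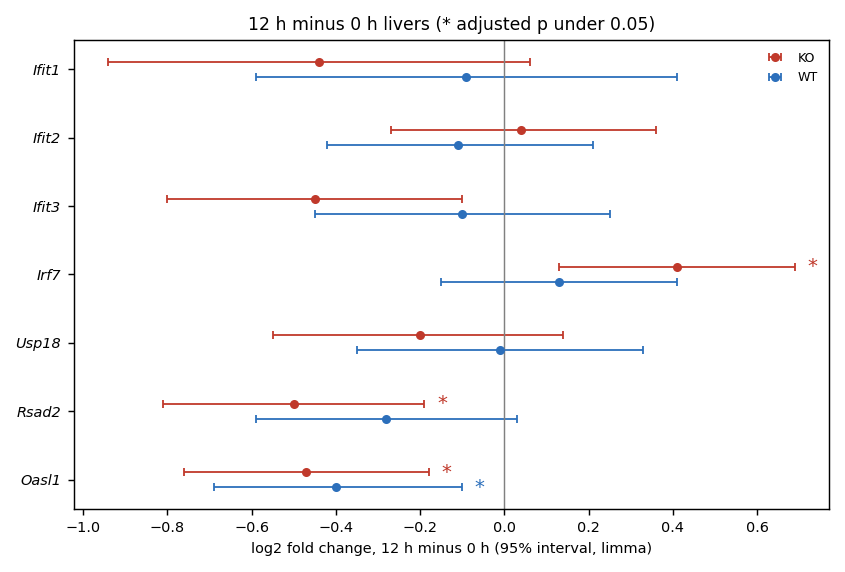
Log2 fold change of 12 h minus 0 h livers (horizontal axis) for the 7 genes in KO (red) and WT (blue) mice, with 95% confidence intervals from limma; an asterisk marks an adjusted p under 0.05. *Oasl1* lies at -0.47 in KO and -0.40 in WT livers, and *Irf7* at 0.41 in KO livers is the only called change upward.

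The 3 measured *Ifit* genes lie close together on chromosome 19, with *Ifit3b* between *Ifit3* and *Ifit1*, and encode RNA-binding proteins of related build. None of them was called between the times. *Ifit1* changed by -0.44 in KO livers (interval -0.94 to 0.06) and by -0.09 in WT livers (interval -0.59 to 0.41). *Ifit3* changed by -0.45 in KO livers (interval -0.80 to -0.10, limma adjusted p = 0.0628) and by -0.10 in WT livers. It passed in KO livers where only probe sets above the median level were tested (adjusted p = 0.0401). *Ifit3b*, which has a single-gene probe set of its own, changed by -0.24 in KO and -0.08 in WT livers and was not called. *Ifit2* changed by 0.04 in KO and -0.11 in WT livers.

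The levels of *Ifit3* in KO mice were 6.97, 7.56, 7.72, 7.81 and 7.84 at 12 h, against 7.76, 7.77, 8.03, 8.20 and 8.39 at 0 h. In WT mice they were 7.38, 7.48, 7.72, 7.73 and 7.94 at 12 h, against 7.37, 7.63, 7.69, 7.82 and 8.24 at 0 h. The WT mice ranged from 7.38 to 7.94 at 12 h and from 7.37 to 8.24 at 0 h. The highest KO mouse at 0 h was at 8.39, and the ranges of all groups overlapped.

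*Usp18* removes ISG15 from proteins and restrains signalling of the type I receptor. In KO mice its levels were 7.94, 8.15, 8.24, 8.48 and 8.52 at 12 h, against 7.97, 8.21, 8.60, 8.67 and 8.90 at 0 h. In WT mice they were 7.73, 8.02, 8.18, 8.45 and 8.46 at 12 h, against 7.95, 7.99, 8.25, 8.31 and 8.40 at 0 h. The groups overlapped throughout, with changes of -0.20 in KO and -0.01 in WT livers. *Ifit2* ranged from 6.74 to 7.23 (median 6.89) in KO and from 6.22 to 7.16 (median 6.73) in WT mice at 12 h, and from 6.64 to 7.23 (median 6.93) in KO and from 6.63 to 7.13 (median 6.85) in WT mice at 0 h.

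Some markers of liver cell types were called between the times as well. Of 8 Kupffer cell and macrophage markers, 2 were lower at 12 h in KO livers (*Vsig4* at -0.55 and *Clec4f* at -0.39) and 5 were lower in WT livers (among them *Clec4f* at -0.74 and *Vsig4* at -0.62), against the 9.69% in KO and 14.3% in WT of all probe sets that were lower, and 0 were higher. The mean of the 8 lay between 9.04 and 9.40 in KO mice at 12 h, against 9.19 to 9.65 at 0 h, and between 8.92 and 9.30 in WT mice at 12 h, against 9.34 to 9.69 at 0 h. Of 6 markers of sinusoidal endothelium, 1 was higher and 1 lower in KO livers (*Stab1* at 0.47 and *Fcgr2b* at -0.48), and 2 were higher and 1 lower in WT livers (*Stab1* at 0.47, *Stab2* at 0.25 and *Fcgr2b* at -0.30). Of the 6 hepatocyte markers, 0 were called in KO livers and 2 were higher in WT livers (*Tat* at 0.24 and *Cps1* at 0.20). Of all probe sets 10.6% were higher in KO livers and 13.5% in WT livers. The array medians were 7.13 to 7.17 in KO and 7.07 to 7.15 in WT livers at 12 h, against 7.19 to 7.23 in KO and 7.18 to 7.24 in WT livers at 0 h. With each array centred on its median, the changes in KO livers were -0.41 for *Oasl1*, -0.44 for *Rsad2* and 0.47 for *Irf7*, all still called, and that of *Oasl1* in WT livers was -0.31 and not called. The part of the cell type markers in these changes was not tested. The 4 measured markers of plasmacytoid dendritic cells, which produce type I interferon, were not called for genotype or time. Their mean lay between 6.38 and 6.82 in every mouse, below the array medians.

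What the members share most plainly is their spread between mice of the same group. The pooled SD within groups was 0.44 for *Ifit1*, 0.30 for *Ifit3*, 0.29 for *Usp18*, 0.26 for *Ifit2* and *Rsad2*, 0.25 for *Oasl1* and 0.23 for *Irf7*, against a median of 0.16 over all probe sets. By this SD *Ifit1* stood above 98.8% of all probe sets and *Irf7*, with the lowest, above 87.2%. Levels here thus varied in these genes more than in most, within a genotype and time. At 0 h this spread also holds differences between batches.

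The same mice were high or low in several members. Among the KO mice at 12 h, mouse 55 was the lowest of its group in 5 of the 7 genes and below the group mean in all 7, and mouse 18 was the highest in 4. Among the WT mice at 12 h, mouse 169 was the lowest in 4. Among the KO mice at 0 h, mouse 76 was the highest in 6 of the 7 genes and above the mean in all 7, and mice 77 and 143 were the lowest in 4 and 3. Mice 77 and 143 are the KO mice of batch 1, and batch is not removed from these deviations. Among the WT mice at 0 h, mouse 80 was the lowest in 4 genes, yet the highest in *Oasl1*, and mouse 146 was the highest in *Ifit1*, *Ifit3* and *Usp18* and the lowest in *Irf7*.

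**Figure D4:**
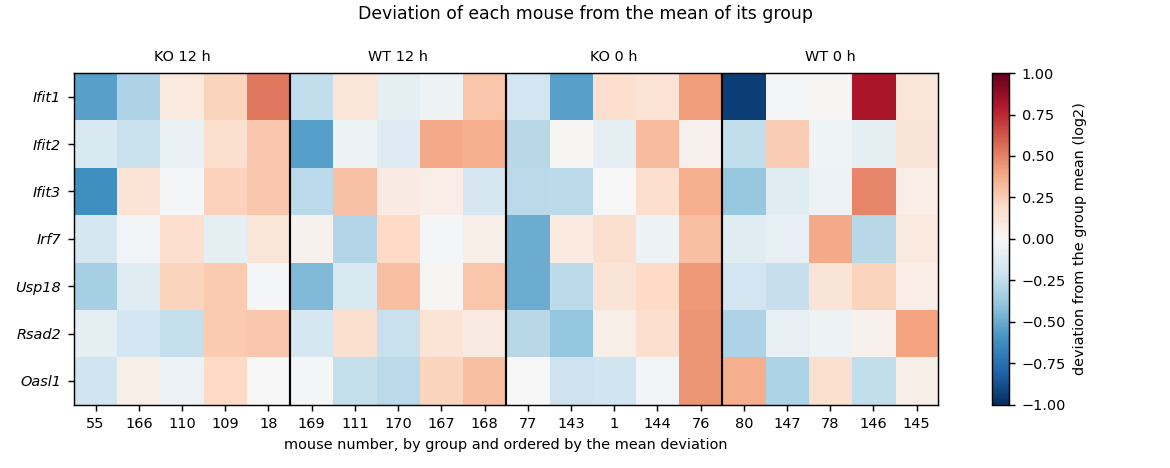
Deviation of each mouse (columns, by mouse number and group) from the mean of its group for each gene (rows), in log2 units, red above and blue below the mean. KO mouse 76 at 0 h is red in all 7 rows and KO mouse 55 at 12 h is blue in all 7, while the rows of *Irf7* and *Oasl1* run less alike with the others.

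Correlations between members were taken over the 20 mice after the 4 group means had been removed, with permutation tests within groups and Benjamini-Hochberg adjustment over the 21 pairs. Of these pairs 20 had a Pearson r above 0, and 6 passed, also 6 by Spearman's rho. How often other pairs of probe sets correlate as closely was not computed. The co-movement is therefore not shown to be particular to these genes, and at 0 h the deviations still hold differences between batches. The closest pair was *Ifit1* and *Ifit3* (r = 0.80, permutation p = 0.00044, adjusted p = 0.00924; rho = 0.71, permutation p = 0.0021, adjusted p = 0.015). Without the 2 mice farthest from the median of *Ifit1* its r was 0.72. It was 0.65 within the 10 mice of batch 5 at 12 h and 0.92 within the 10 mice at 0 h.

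*Ifit1* also moved with *Rsad2* (r = 0.68, permutation p = 0.00389, adjusted p = 0.0211; rho = 0.78, permutation p = 0.00087, adjusted p = 0.015) and with *Usp18* (r = 0.63, permutation p = 0.00157, adjusted p = 0.0165; rho = 0.69, permutation p = 0.00214, adjusted p = 0.015). Without the 2 farthest mice these were 0.76 and 0.67. The other 3 pairs that passed were *Ifit3* with *Usp18* (r = 0.64, rho = 0.61, permutation p = 0.00402 and 0.00956), *Ifit3* with *Rsad2* (r = 0.62, rho = 0.66, permutation p = 0.00808 and 0.00529) and *Ifit2* with *Rsad2* (r = 0.58, rho = 0.65, permutation p = 0.00663 and 0.00303). Their r without the 2 farthest mice was 0.58, 0.75 and 0.59. Taking the permutation test again without those mice, the pairs *Ifit2* with *Rsad2* and *Ifit3* with *Usp18* no longer passed.

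Within batch 5 alone, with 10 mice, 0 pairs passed (the 6 pairs had r from 0.43 to 0.71). Without WT mouse 80, 2 pairs passed and without KO mouse 18, 3. Without WT mouse 80 and KO mouse 1 together only *Ifit1* with *Ifit3* passed (r = 0.79, permutation adjusted p = 0.0279), while the other 5 pairs had r from 0.55 to 0.65. No pair with *Irf7* or *Oasl1* passed. *Irf7* was nearest to *Usp18* (r = 0.54, permutation p = 0.0331, adjusted p = 0.0787; rho = 0.49, permutation p = 0.0452, adjusted p = 0.119). *Oasl1* and *Ifit1* had an r of -0.04 (permutation p = 0.893; rho = 0.12, permutation p = 0.644), which was 0.28 without WT mouse 80.

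**Figure D5:**
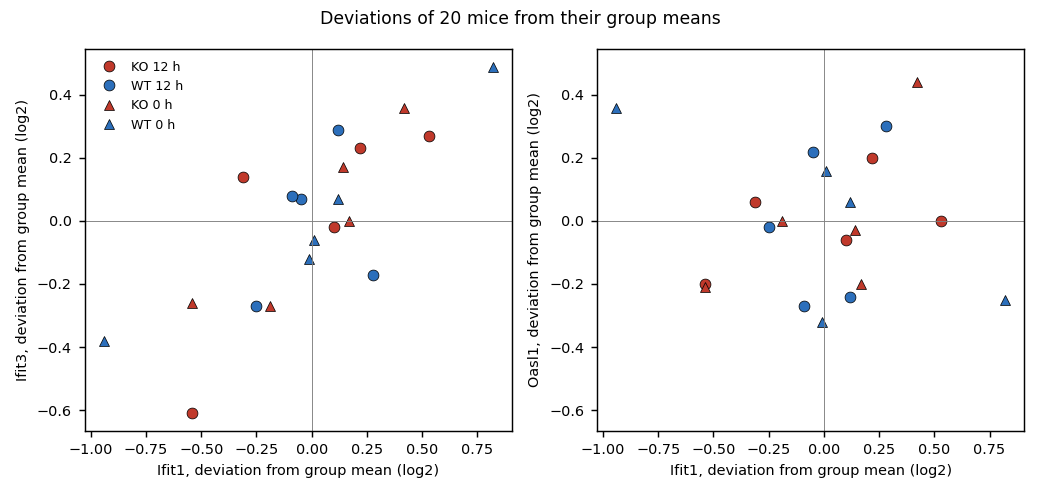
Deviation of *Ifit3* (left) and *Oasl1* (right) from the group mean against that of *Ifit1*, in log2 units, with 1 symbol per mouse (circles 12 h, triangles 0 h, red KO, blue WT). For *Ifit3* the points rise together (r = 0.80), and for *Oasl1* they do not (r = -0.04); WT mouse 80 is the leftmost triangle in both panels.

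*Ifit1*, *Ifit3* and *Rsad2*, which formed 3 of the 6 pairs that passed among themselves, are the 3 members whose promoter stretches with an exact ISRE are shown above. The other 3 pairs hold *Usp18*, which has no window, or *Ifit2*, which held no exact match. This is a description of the windows of 6 members and was not tested.

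The probe sets most like the members were chosen by their Pearson r, over the same deviations of the 20 mice, with the mean deviation of the 7 genes, and since they were chosen for it no test is given. The 10 closest genes were *Afg1l* (r = 0.79), *Ddx58* (0.76), *Akip1* (0.76), *Cypt1* (0.75), *Rbp4* (0.75), *Irf9* (0.75), *Ddx60* (0.74), *Tdrd7* (0.74), *Rwdd1* (0.73) and *Agpat5* (0.73). Of these, *Ddx58*, which encodes the RNA sensor RIG-I, *Irf9*, the DNA-binding factor named above, and *Ddx60* were in the lists of interferon genes. The others, with *Afg1l* as the closest of all, were in none of these lists. *Rbp4* encodes the carrier of retinol in blood. Their differences between KO and WT livers over both times were 0.03 for *Ddx58*, 0.02 for *Irf9* and 0.17 for *Ddx60*, none of them called.

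The rest of the pathway was followed through lists of genes by role. For genotype, 0 genes of any of these lists were called at 12 h, at 0 h or over both times. Of 14 measured ligands, 0 were called in KO livers between the times and 1 was lower at 12 h in WT livers, *Ifnl2* of the lambda interferons (-0.44, limma adjusted p = 0.000615). Over all probe sets 20.3% were called in KO livers and 14.3% were lower in WT livers. The type I ligand *Ifnb1* changed by -0.13 in KO and -0.04 in WT livers and was not called. The mean of the 14 ligands lay between 5.95 and 6.21 in every mouse, below the array medians of 7.07 to 7.24. Whether these probe sets, that of *Ifnl2* among them, exceeded background could not be assessed.

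Of 16 measured receptors and signalling genes, 2 were higher at 12 h in KO livers and 0 lower, and 2 were higher and 1 lower in WT livers. Over all probe sets 10.6% were higher and 9.69% lower in KO livers, and 13.5% higher and 14.3% lower in WT livers. The kinases *Jak1* (0.30 in KO, 0.27 in WT) and *Jak2* (0.28 in KO, 0.36 in WT) were called higher in both. *Socs1*, an inhibitor of the kinases, was lower in WT livers (-0.29, limma adjusted p = 0.0152). The receptor gene *Ifnar1* (0.07 in KO, 0.12 in WT) and *Stat2* (-0.11 in KO, -0.17 in WT) were not called.

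Of 18 measured sensors, adaptors and IRFs, 1 was higher at 12 h in KO livers and 0 lower, and 2 were higher and 2 lower in WT livers. The shares over all probe sets were 10.6% higher and 9.69% lower in KO livers, and 13.5% higher and 14.3% lower in WT livers. *Irf2*, which represses interferon responses by occupying the same element as the activators, was higher in KO (0.50) and WT (0.40) livers. *Irf1*, an activator, was lower in WT livers (-0.36), as was the nucleic acid sensor *Zbp1* (-0.24), and the RNA sensor *Tlr7* was higher (0.37).

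Of 46 other interferon-stimulated genes measured, 9 were lower and 0 higher at 12 h in KO livers, and 12 were lower and 3 higher in WT livers. Over all probe sets 9.69% were lower and 10.6% higher in KO livers, and 14.3% lower and 13.5% higher in WT livers. The median change of the 46 genes was -0.17 in both genotypes, against -0.02 in KO and -0.03 in WT livers over all probe sets. *Mx2*, a GTPase against viruses, was lower in KO (-0.74) and WT (-0.63) livers, as were *Rtp4* (-0.66 in KO, -0.60 in WT), the nucleotide kinase *Cmpk2* (-0.52 in KO, -0.70 in WT), which lies next to *Rsad2* in the genome, and *Ifi35* (-0.46 in KO, -0.45 in WT). *Bst2*, the tetherin that holds budding viruses at the cell surface, was lower in KO (-0.42) and WT (-1.01) livers. *Herc6* (0.80), *Ddx60* (0.52) and *Slfn5* (0.39) were higher in WT livers. That these changes were relative to arrays of another batch holds for each of them.

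Among the 5 measured enzymes that attach ISG15 to proteins, *Ube2e1* was lower at 12 h in KO (-0.26) and WT (-0.27) livers and *Herc6*, the ligase of the mouse, was higher in WT livers. Of 18 genes induced by interferon gamma or serving antigen presentation, 2 were lower at 12 h in KO livers and 4 in WT livers, with 0 and 1 higher. Beside this list and the enzymes, the shares over all probe sets were 9.69% lower and 10.6% higher in KO livers. In WT livers they were 14.3% lower and 13.5% higher. The GTPase *Irgm1* was lower in KO (-0.72) and WT (-0.73) livers, *Iigp1* was lower in KO livers (-0.44), and *Gbp4* (-0.49) and the immunoproteasome subunit *Psmb8* (-0.45) were lower in WT livers, where *Gbp7* was higher (0.72). Over both times *Iigp1* differed by 0.25 between KO and WT livers (interval 0.04 to 0.47), which was not called. *Slfn8*, of the other interferon-stimulated genes, went the other way at -0.28 (interval -0.43 to -0.12), also not called. These are examples, and further list genes had intervals that excluded 0 without being called. Among them were *Samd9l* at 0.44 (interval 0.05 to 0.83) and *Stat2* at -0.18 (interval -0.33 to -0.03).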

How the data were processed

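The authors deposited log2 expression per probe set from Affymetrix arrays, made with RMA according to the submitters' processing notes; RMA includes background correction, so signal over background could not be assessed. Of 35557 probe sets, 9868 are empty on every array and were dropped. Genes came from the platform annotation, and for a gene with several probe sets the highest mean over all arrays was taken. Groups came from the labels, where mouse numbers name the animals. A linear model of 4 group means over 20 arrays was fitted in R 4.3.3 (limma 3.58.1), and p-values were adjusted over all 25689 probe sets (Benjamini-Hochberg, threshold 0.05). The fit was tested on simulated data. Single genes were also tested by exact permutation, and correlations with 100000 resamples (numpy 2.4.6). Alternatives were batch as a block, only the arrays compared, bright probe sets, quantile normalization, median centring, an intensity trend, array weights and leaving out arrays. Named were all measured members, *Crem*, up to 4 called genes per list, direction and comparison, and the 10 genes most like the members. *Ifnb1*, *Ifnar1*, *Stat2*, *Slfn8*, *Samd9l*, *Ifit3b* and the genotype values of *Iigp1* fall outside that rule and were chosen with their values in view. Each mouse gave 1 array, so the spread holds differences between mice and between arrays together. At 0 h it also holds differences between batches. The members and lists were chosen with earlier results of these data known. The other lists, of T, B and NK cells, neutrophils and sinusoidal endothelium, had 0 genes called for genotype.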

Additional observations from a re-analysis of the deposited data

How the results depend on the processing

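The number of members called for genotype (12 h, 0 h, both times and their difference) stayed at 0 under each setting tried. Leaving out 1 array gave 1 to 4 called members between the times in KO livers (1 without KO mouse 76, 144, 110 or 166), 0 to 1 in WT livers and 2 to 8 correlated pairs. Beside these, 4463 to 5472 of all 25689 probe sets were called between the times in KO livers and 5857 to 7140 in WT livers. In WT livers the count was 0 with batch as a random block, with only the arrays compared, with median centring, with array weights and without WT mouse 80 and KO mouse 1 together, which was added after the data were seen. Under those settings 5766 to 7289 of all 25689 probe sets were called in WT livers. Pairs fell to 0 of 21 with only the 10 arrays of batch 5. The cause was not tested. Without WT mouse 80 and KO mouse 1 together, 1 pair passed. No called value changed sign. *Ifit2* at 0 h was -0.03 with array weights and -0.01 without WT mouse 80 and KO mouse 1, *Irf7* over both times was 0.02 with batch as a fixed block and 0.02 with quantile normalization, and *Usp18* in WT between the times was 0.07 with centring. Correlations that turned were *Ifit1* with *Oasl1* (0.36 in batch 5, 0.01 with a term for batch, 0.33 without WT mouse 80 and KO mouse 1, 0.45 without the 2 farthest mice) and *Irf7* with *Rsad2* (-0.37 in batch 5, 0.0 with a term for batch). Leaving out 1 array gave, for KO against WT, -0.05 to 0.10 for *Ifit2* at 0 h, and at 12 h -0.14 to 0.08 for *Ifit3*, -0.01 to 0.13 for *Oasl1* and -0.01 to 0.18 for *Usp18*. It gave -0.04 to 0.06 for *Irf7* over both times and -0.16 to 0.04 for *Oasl1* in the difference between times. For 12 h against 0 h it gave -0.03 to 0.12 for *Ifit2* in KO and, in WT, -0.20 to 0.03 for *Ifit2*, -0.32 to 0.12 for *Ifit1*, -0.19 to 0.02 for *Ifit3* and -0.09 to 0.10 for *Usp18*. Correlations ranged from -0.06 to 0.32 for *Ifit3* with *Irf7*, -0.17 to 0.21 for *Ifit3* with *Oasl1*, -0.21 to 0.28 for *Ifit1* with *Oasl1* and 0.0 to 0.26 for *Ifit2* with *Irf7*. With the shorter ISRE form GAAANNGAA, 8.56% of windows held a match and the same 3 members did. Each member has 1 probe set, so using every probe set changed nothing. Precision is limited by the number of arrays. No paired analysis was possible because each mouse number occurs in 1 group.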
